A study of Mus musculus with 2 samples.

Results

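The genes described are 6 members of the sodium pump system, measured in long-read RNA sequencing libraries of mouse calf muscle: the beta subunits Atp1b1 and Atp1b2 and the FXYD regulators Fxyd1, Fxyd5, Fxyd6 and Fxyd7. The members were taken by the gene name written in the transcript tables, which gave 71 transcript models in replicate 1 and 112 in replicate 2. They are 6 of the 15521 annotated genes with a read in either library, and they held 1713 reads in replicate 1 and 5626 in replicate 2. They were selected with their values in these libraries known, so their levels and the differences between the libraries are given as descriptions.

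Gastrocnemius was taken from B6CASTF1/J females at 25 days of age; the strain is the F1 hybrid of C57BL/6J and CAST/EiJ, and the muscle is built mainly of fast fibres. There was 1 group with 2 biological replicates, taken from animals numbered 03 (replicate 1) and 04 (replicate 2) that carry the same donor record, and each library was made from 2 µg of total RNA with spike-in RNAs added. No treatment or second genotype was part of the series, so the comparisons below are between genes, between transcripts of a gene and between 2 libraries. Replicate 1 held 1069771 mouse reads and replicate 2 held 1557594, and levels are given per 1000000 mouse reads (CPM). A count of 0 allows a level of up to 2.80 CPM in replicate 1 and 1.93 CPM in replicate 2, taking 3 reads as the limit. All intervals are exact Clopper-Pearson 95% intervals, and these and the limits cover counting error only.

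The sodium pump, or Na,K-ATPase, exports sodium and imports potassium at the cost of ATP, and in skeletal muscle it restores the ion gradients that each action potential runs down. An alpha subunit carries out catalysis, a glycosylated beta subunit is needed for folding and delivery of the pump to the membrane, and a small single-span FXYD protein can bind the complex and tune its ion affinity or turnover. FXYD proteins share the residues phenylalanine, any residue, tyrosine and aspartate ahead of the membrane span, and phospholemman, encoded by Fxyd1, is the form best known from heart and skeletal muscle.

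The codons of this signature set the 4 FXYD members apart from other small membrane proteins, so the coding stretch around it is shown for each, read from the GENCODE M21 transcripts (mm10), with the 12 bases of the signature in capitals. Each coding sequence held 1 in-frame match.

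Fxyd1: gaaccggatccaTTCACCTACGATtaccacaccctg
Fxyd5: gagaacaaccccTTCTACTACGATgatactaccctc
Fxyd6: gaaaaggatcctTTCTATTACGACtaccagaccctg
Fxyd7: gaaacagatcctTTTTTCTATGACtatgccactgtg

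The signature begins at codon 29 of 92 in Fxyd1, codon 28 of 93 in the shorter form of Fxyd6 and codon 18 of 80 in Fxyd7, stop codon not counted. In Fxyd5, whose extracellular part is long, it begins at codon 135 of 178. Fxyd1, Fxyd5 and Fxyd7 are neighbours on chromosome 7, and Fxyd6 lies on chromosome 9.

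Atp1b2 was the leading beta subunit and Fxyd1 the leading FXYD gene in both libraries. A long read follows a transcript along its length and is counted once, so CPM was not divided by length. The length of the transcript still moved with the values: over 8752 genes, the log2 ratio of replicate 2 to replicate 1 fell with the length of the most read model, with a Spearman's rho across genes of -0.50, and genes are not independent replicates. Counts restricted to reads that hold every coding intron of an annotated transcript are given beside the counts of all reads. Whether this restriction removes the length trend was not tested.

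Atp1b2 (ENSMUSG00000041329.13, chromosome 11, 69599736 to 69605942, minus strand, mm10), the beta subunit also known as the adhesion molecule on glia, had 435 reads in replicate 1 and 405 in replicate 2. These are 407 CPM (369 to 447) and 260 CPM (235 to 287), a mean of 333 ± 104 CPM (SD, n = 2). The intervals did not overlap, and replicate 2 was the lower library, with a log2 ratio of -0.64 (-0.84 to -0.45).

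Atp1b1 (ENSMUSG00000026576.12, chromosome 1, 164437109 to 164458355, minus strand), the widely expressed beta subunit, had 118 and 124 reads. Its level was 110 CPM (91.3 to 132) in replicate 1 and 79.6 CPM (66.2 to 94.9) in replicate 2, a mean of 95.0 ± 21.7 CPM (SD, n = 2). The CPM intervals overlapped between 91.3 and 94.9, and the log2 ratio was -0.47 (-0.85 to -0.09), but 0.068 when the libraries were scaled by their spike-in reads. That scaling adds 0.54 to every log2 ratio given here, TMM factors add 0.17 and DESeq2 size factors add 0.22. Atp1b2 stood at -0.11 with spike-in scaling.

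Over all reads, there were 3.69 Atp1b2 reads per Atp1b1 read in replicate 1 and 3.27 in replicate 2. Atp1b2 took 73.9% (70.1 to 77.4) of the reads of the 4 beta subunit genes in replicate 1 and 68.9% (65.0 to 72.6) in replicate 2. Atp1b1 took 20.0% (16.9 to 23.5) and 21.1% (17.9 to 24.6). Both pairs of intervals overlap. Among reads with every coding intron, Atp1b2 took 78.0% and 76.7%, and there were 4.44 such Atp1b2 reads per Atp1b1 read in replicate 1 and 4.57 in replicate 2. Of the other beta subunit genes, Atp1b3 had 25 and 52 reads and Atp1b4, whose product is known as a nuclear membrane protein of muscle in placental mammals, had 11 and 7.

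Fxyd1 (ENSMUSG00000036570.14, chromosome 7, 31051678 to 31057199, minus strand), which encodes phospholemman, a substrate of protein kinases A and C, had 1109 reads in replicate 1 and 4915 in replicate 2. These are 1037 CPM (977 to 1099) and 3156 CPM (3068 to 3245), a mean of 2096 ± 1498 CPM (SD, n = 2). Replicate 2 was the higher library by a log2 ratio of 1.61 (1.51 to 1.70), a difference many times the counting error of either library.

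Fxyd6 (ENSMUSG00000066705.7, chromosome 9, 45370185 to 45396159, plus strand), which encodes phosphohippolin, a regulator best known from brain, had 50 and 122 reads. Its level was 46.7 CPM (34.7 to 61.6) in replicate 1 and 78.3 CPM (65.0 to 93.5) in replicate 2, a mean of 62.5 ± 22.3 CPM (SD, n = 2). The intervals did not overlap, and the log2 ratio was 0.74 (0.26 to 1.25).

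Fxyd5 (ENSMUSG00000009687.14, chromosome 7, 31032722 to 31042481, minus strand), which encodes dysadherin, a glycoprotein that also lowers cell adhesion, had 1 read in replicate 1 and 3 in replicate 2. Both counts are at or under the limit of 3 reads, so no fold is given. All of them matched annotated coding transcripts: 1 and 2 reads of ENSMUST00000161684.7 (9 exons, 1172 bases) and 0 and 1 of ENSMUST00000009831.13 (803 bases).

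Fxyd7 (ENSMUSG00000036578.7, chromosome 7, 31042513 to 31051467, minus strand), which encodes a small regulator best known from neurons, was named for 0 reads in replicate 1 and 57 in replicate 2. By that name its level was 36.6 CPM (27.7 to 47.4) in replicate 2. Of the 57 reads, 50 held no base of an annotated Fxyd7 exon, as the models described further on show. The difference in named reads is therefore not a difference in the level of Fxyd7, and no fold is given.

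**Figure D1:**
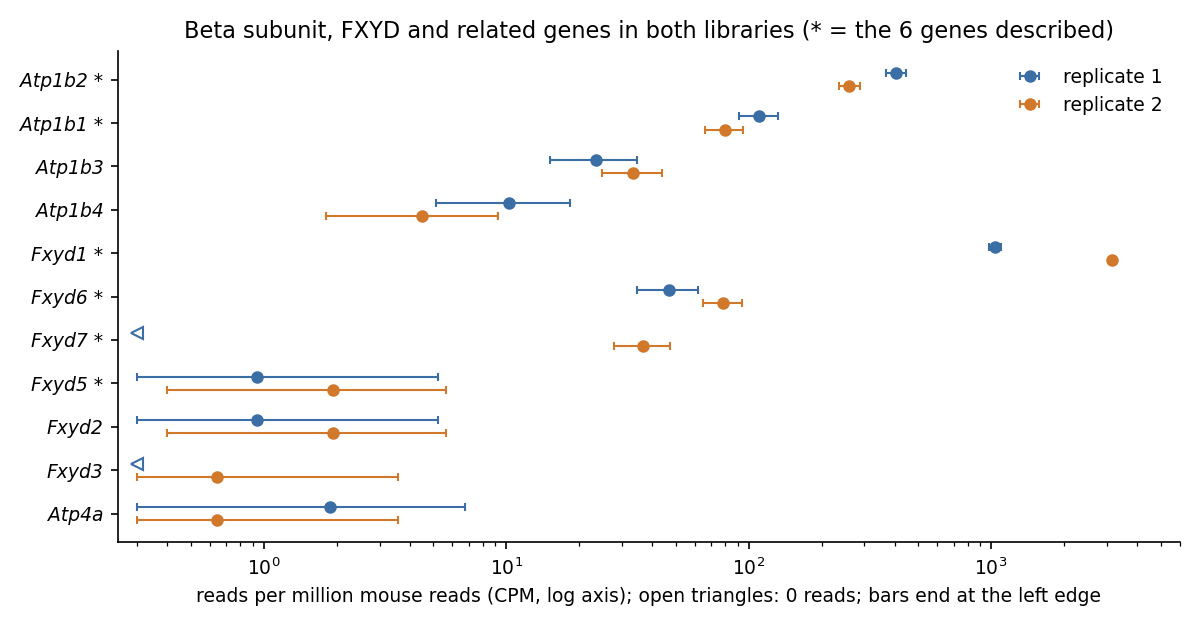
Level of the beta subunit genes, the FXYD genes and a related proton pump gene with a read, in CPM (log axis), with 1 point per library and exact 95% intervals; asterisks mark the 6 genes described and open triangles mark 0 reads. Fxyd1 stands at 1037 CPM in replicate 1 and 3156 CPM in replicate 2, above every other gene shown, and Atp1b2 stands above the other beta subunits in both libraries.

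Shares among the 7 FXYD genes were counted by deposited name. Fxyd1 took 95.5% (94.2 to 96.6) of the reads in replicate 1 and 96.4% (95.8 to 96.9) in replicate 2. The replicate 2 share leaves out the 50 reads named for Fxyd7 that hold no base of its exons. With reads placed by annotated exons, Fxyd1 held 1108 of 1161 FXYD reads in replicate 1 and 4965 of 5101 in replicate 2. Fxyd6 took 4.31% (3.21 to 5.64) and 2.39% (1.99 to 2.85), so its share was the lower in the library where its CPM was the higher. Counting reads with every coding intron lowered the share of Fxyd1 to 87.6% (83.9 to 90.7) and 88.5% (86.3 to 90.4), and raised that of Fxyd6 to 12.1% and 10.5%. Fxyd2 had 1 and 3 reads and Fxyd3 had 0 and 1. Fxyd4 had none in either library, which allows up to the limits of 2.80 and 1.93 CPM.

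Of the related proton pump genes in the list, Atp4a had 2 and 1 reads and Atp12a and Atp4b had none.

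**Figure D2:**
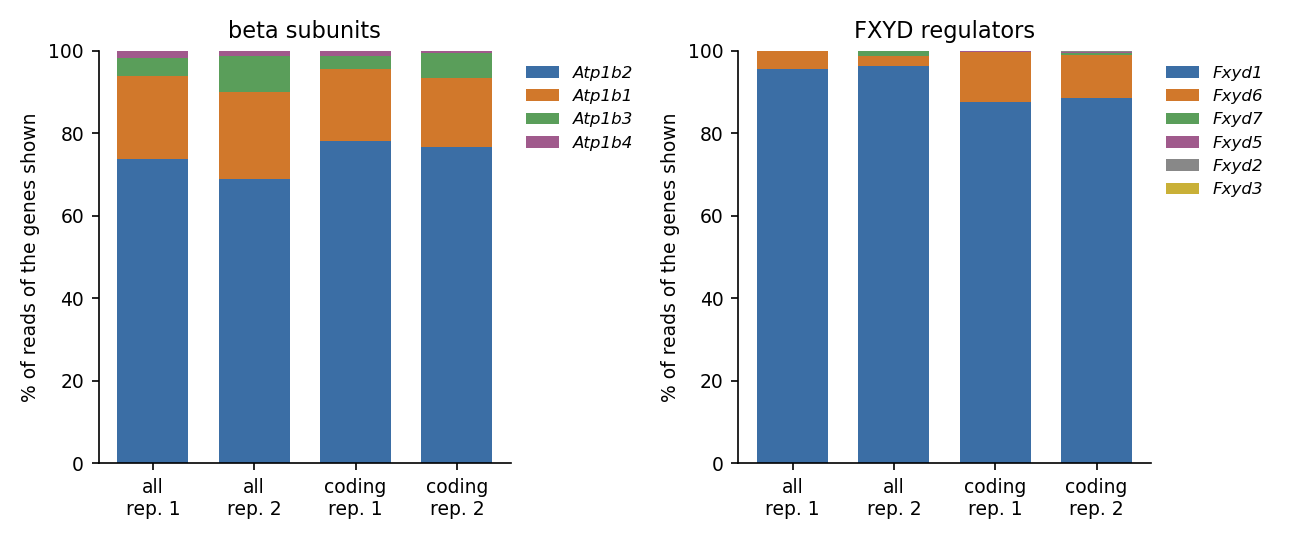
Share of each gene in the reads of the beta subunits (left) and of the FXYD regulators (right), in percent, for all reads and for reads that hold every coding intron, in each library. Genes are counted by deposited name. Atp1b2 takes 68.9% to 78.0% of the beta subunit reads in the 4 bars. The share of Fxyd1 drops from 95.5% and 96.4% over all reads to 87.6% and 88.5% over reads with every coding intron.

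As a background for these differences, Fisher's exact test (two-sided, Benjamini-Hochberg over all genes) compared each gene with the rest of its library for the 8892 genes with 10 or more reads over both. It called 11.1% of them higher and 14.9% lower in replicate 2, and it compares 2 libraries, not conditions. Of the 6 members, 5 had enough reads: Fxyd1, Fxyd6 and Fxyd7 were called higher and Atp1b1 and Atp1b2 lower. Nothing is read from these calls, since the members were chosen by values of the same comparison. At the ratio given by TMM or by DESeq2 size factors, 4 of the 5 were called, without Atp1b1. Fxyd7 was counted here by its deposited name, and 50 of its 57 reads held no base of an annotated Fxyd7 exon. The median log2 ratio of all 8892 genes was -0.18. Of the other beta subunit genes, Atp1b3 and Atp1b4 were not called.

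Markers of fibre types and other cells also differed between the libraries. All 8 slow fibre markers, led by Tnnt1 (204 and 5366 reads) and Tpm3 (189 and 2048), were higher in replicate 2, with a summed level of 1056 CPM in replicate 1 and 8121 CPM in replicate 2. Of the 9 fast fibre markers, 5 were higher and 4 lower in replicate 2, with a median log2 ratio of 0.69. Their sum was 228758 and 138940 CPM, led by Atp2a1 (168943 and 87863 reads) and Tnnc2 (19902 and 55103). The 8 tendon markers, led by Fmod and Thbs4, summed to 86.9 and 455 CPM. Of the 6 neuron markers, 5 had no read in either library, with 1 read of Nefm in replicate 2. Fibroblast (4101 and 2163 CPM; Col3a1, Col1a1), endothelial (147 and 107; Egfl7, Cldn5), smooth muscle and pericyte (333 and 171; Rgs5, Acta2), adipocyte (501 and 234; Cfd, Fabp4) and blood markers (1235 and 415; Hba-a1, Hbb-bs) summed lower in replicate 2. Lower there were 5 of 6 fibroblast, 5 of 6 endothelial and 6 of 6 smooth muscle and pericyte markers. So were 4 of 5 adipocyte and 5 of 5 blood markers. Of the genes named, Egfl7 (28 and 79 reads) and Fabp4 (117 and 225) were higher in replicate 2. Leukocyte markers summed to 59.8 and 83.5 CPM, led by Lyz2 and C1qa. The part of these shifts in the levels of the 6 members was not tested, and fewer cells of a type and less RNA per cell cannot be told apart in these libraries. The part of the trend of the log2 ratio on transcript length in the marker shifts was not tested either.

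Most Fxyd1 reads belonged to models that stop short of the coding start. The most read model was ENSMUST00000206317.1, annotated as a retained-intron transcript of 3 exons and 255 bases, with 667 reads in replicate 1 and 3536 in replicate 2. It took 60.1% (57.2 to 63.0) and 71.9% (70.7 to 73.2) of all Fxyd1 reads. The model holds the last 70 of the 276 coding bases and reaches 16 bases into the intron upstream of them. Both of its introns are also the last introns of 7 of the 11 Fxyd1 transcripts annotated with a complete coding region, so its intron chain cannot be told from that of a longer transcript that was read only in part. The deposited ends of a model that matches an annotated transcript are those of the annotation. Where the reads of this model began, and whether they held those 16 bases, is therefore not known. A matching model with another start of the last exon (3 exons, 224 bases) had 52 and 387 reads, and one with the last intron retained (2 exons, 376 bases) had 28 and 91.

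Reads named for Fxyd1 that hold its every coding intron numbered 332 in replicate 1 and 862 in replicate 2. These are 29.9% (27.3 to 32.7) and 17.5% (16.5 to 18.6) of the reads so named. Their level was 310 CPM and 553 CPM, a mean of 432 ± 172 CPM (SD, n = 2) and a log2 ratio of 0.83 (0.65 to 1.02). For the 3-exon model, the log2 ratio was 1.86 (1.74 to 1.99), from 623 to 2270 CPM. The intervals of these log2 ratios did not overlap, so the difference between the libraries was 1.78-fold over reads with every coding intron and 3.64-fold over the 3-exon model. With the trend of the log2 ratio on transcript length removed, the ratio of all Fxyd1 reads was 0.33. The length used was the 255 bases of the 3-exon model, so this value depends on that model being the RNA that was read.

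**Figure D3:**
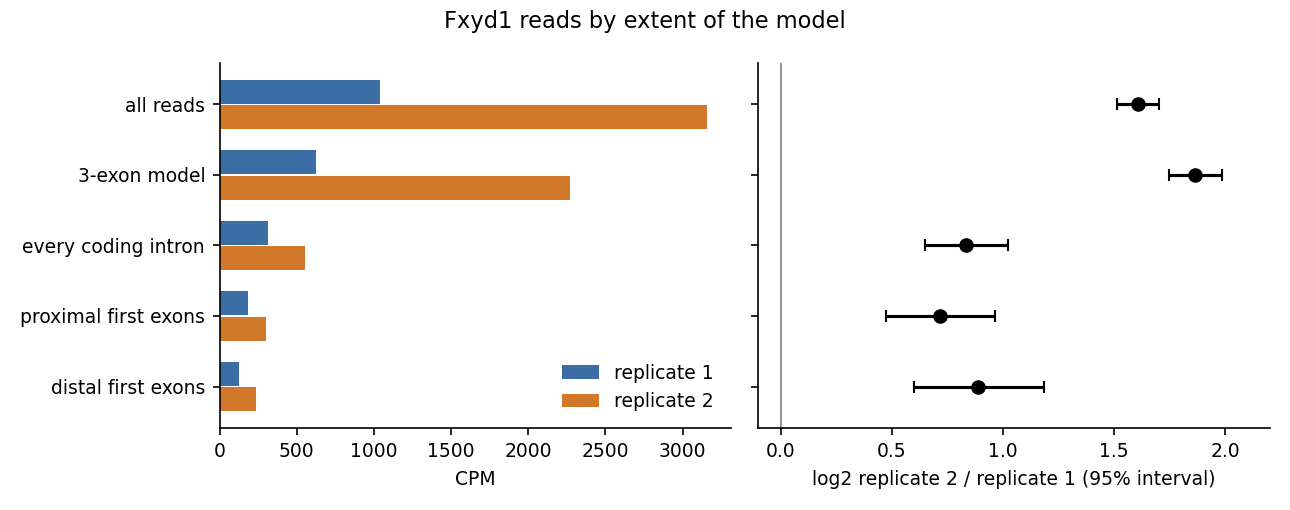
Fxyd1 reads by extent of the model: CPM in each library (left) and log2 ratio of replicate 2 to replicate 1 with its 95% interval (right). The 3-exon model stands at 1.86 and the reads with every coding intron at 0.83, with intervals that do not overlap.

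Atp1b1, Atp1b2 and Fxyd6 had a larger share of reads with every coding intron than Fxyd1 in both libraries, and of the 57 reads named for Fxyd7 in replicate 2, 5 held every coding intron of that gene (8.77%, 2.91 to 19.3). Reads with every coding intron were 89.9% (86.7 to 92.6) of Atp1b2 reads in replicate 1 and 81.2% (77.1 to 84.9) in replicate 2. They were 74.6% (65.7 to 82.1) and 58.1% (48.9 to 66.9) of Atp1b1 reads, and 92.0% (80.8 to 97.8) and 83.6% (75.8 to 89.7) of Fxyd6 reads. For Atp1b1, Atp1b2, Fxyd1 and Fxyd6 the share was the lower in replicate 2, and the intervals of Atp1b2 and Fxyd1 did not overlap between the libraries. Over these reads the log2 ratio was -0.79 (-1.01 to -0.58) for Atp1b2, -0.83 (-1.30 to -0.37) for Atp1b1 and 0.60 (0.09 to 1.14) for Fxyd6.

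Fxyd1 was transcribed with first exons in 2 separate regions, both of them upstream of the coding start at position 31054366. The proximal region (31054673 to 31054819) lies 307 to 453 bases upstream of that base in the genome, and the distal region (31055318 to 31055708) lies 952 to 1342 bases upstream. In all 11 coding transcripts annotated with a complete coding region, that region begins at the same base whichever first exon is used, so the choice lies in the 5′ untranslated region. ENSMUST00000108110.4, the most read transcript with a proximal first exon (8 exons, 492 bases), had 144 and 334 reads. ENSMUST00000206305.1, the most read with a distal first exon (8 exons, 568 bases), had 96 and 278.

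Proximal first exons took 196 of 331 reads in replicate 1 and 469 of 833 in replicate 2 among complete chains that reach either region. These shares are 59.2% (53.7 to 64.6) and 56.3% (52.9 to 59.7), a mean of 57.8 ± 2.1% (SD, n = 2), and their intervals overlap. The proximal and the distal group both stood higher in replicate 2, with log2 ratios of 0.71 (0.47 to 0.96) and 0.89 (0.60 to 1.18). Within the proximal region 179 and 429 reads left the first exon at 31054765 and 17 and 40 at 31054673, and within the distal region 129 and 352 left at 31055551 and 6 and 12 at 31055318. All these counts are of reads named for Fxyd1. In replicate 2, chains named for Fxyd7 also began here, the most read with 4, 4 and 3 reads from distal first exons and 3 from a proximal one. Those distal chains were named for Fxyd1 in replicate 1, with 1, 3 and 1 reads. The replicate 2 counts of both regions, and their log2 ratios, are therefore too low by at least those reads.

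The main forms of the Fxyd1 3′ end differed downstream of 31051968, the last coding base of those 11 transcripts. The shares below are over the 3 most read forms, and reads named for Fxyd7 are not counted in them. The last intron (31051816 to 31051932, 117 bases) was removed in 979 of 1104 reads (88.7%, 86.7 to 90.5) in replicate 1 and in 4309 of 4899 (88.0%, 87.0 to 88.9) in replicate 2. A last exon shorter by 35 bases followed in 7.07% (5.62 to 8.74) and 9.55% (8.74 to 10.4), and the intron was kept in 4.26% (3.14 to 5.62) and 2.49% (2.07 to 2.97). The intervals of the libraries did not overlap for the kept intron, and for the shorter last exon they met within rounding without overlap. Among complete chains, the unannotated one with most reads combined the shorter last exon with the distal first exon at 31055551 (8 exons, 10 and 32 reads). ENSMUST00000205778.1 pairs the shorter last exon with a proximal first exon (8 and 38 reads).

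The Fxyd1 coding exons of 50, 37, 75 and 33 bases were rarely skipped. The exon of 37 bases at 31053025 to 31053061 was spliced over in 9 reads and kept with both annotated junctions in 343 in replicate 1, and spliced over in 6 and kept in 878 in replicate 2. The exon of 75 bases at 31053400 to 31053474 was spliced over in 4 reads and kept in 331 in replicate 1, and spliced over in 1 and kept in 866 in replicate 2. The exons of 50 and 33 bases were each spliced over in 0 reads in replicate 1 and 1 in replicate 2. The intron of 418 bases at 31053475 to 31053892 was retained in 3 and 2 reads. Counts here are of reads named for Fxyd1. In replicate 2, a chain without the 37-base exon (4 reads), one without the 75-base exon (3 reads) and one that kept the 418-base intron (4 reads) were named for Fxyd7, so the counts of these forms in replicate 2 are too low by at least those reads.

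**Figure D4:**
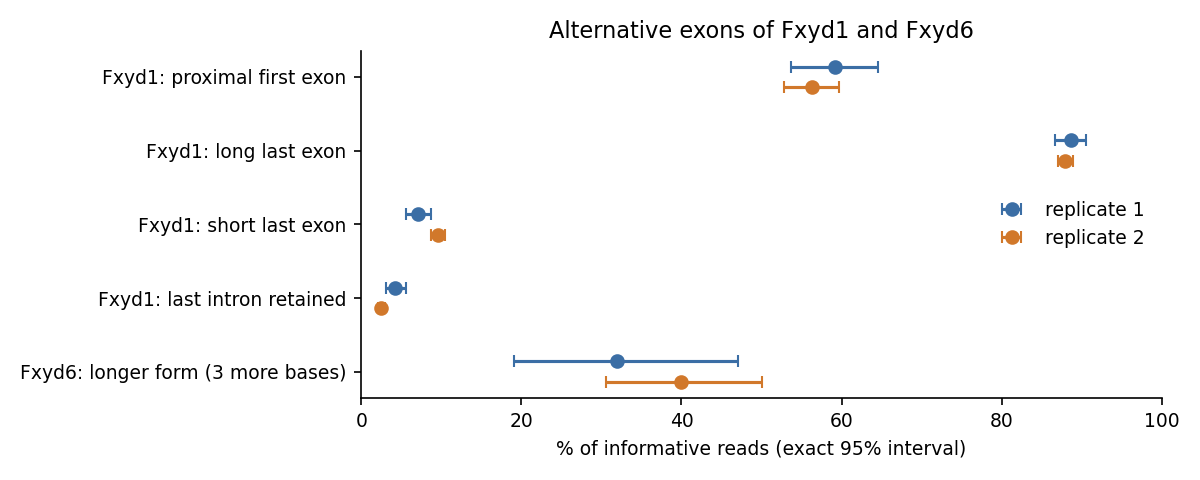
Share of reads with each alternative exon of Fxyd1 and with the longer form of Fxyd6, in percent of the reads that inform the choice, with exact 95% intervals in each library. Fxyd1 reads are counted by deposited name. The proximal first exon of Fxyd1 is at 59.2% and 56.3%, and the kept last intron is at 4.26% and 2.49%, with intervals that do not overlap.

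Shares of isoforms were compared between the libraries for 1700 genes with at least 20 reads of complete chains in each, by Fisher's exact test or a Monte Carlo permutation of reads with Benjamini-Hochberg adjustment. It called 2.18% of them. The members tested were Atp1b2, Fxyd1 and Fxyd6, and Fxyd1 was called. Nothing is read from this call either, since the members were chosen with the values of these libraries known. The 3-exon model of Fxyd1 took 66.6% (63.6 to 69.5) of complete chains in replicate 1 and 80.9% (79.7 to 82.1) in replicate 2. With that model left out, the leading transcript, the 8-exon proximal one, took 43.0% (37.6 to 48.5) and 40.0% (36.7 to 43.4), with intervals that overlap.

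The reads named for Fxyd7 lay mostly in Fxyd1. The annotated genes are head to tail on the minus strand, with Fxyd1 upstream and 210 bases between them. Of the 57 reads in replicate 2, in 28 models, 50 reads in 22 models held no base of an annotated Fxyd7 exon and overlapped exons of Fxyd1. Of these, 47 reads in 19 models lay wholly over Fxyd1 exons, and 3 reads in 3 models also held bases outside them. The other 7 reads, in 6 models, joined Fxyd1 exons to Fxyd7 exons. No read in either library lay over Fxyd7 exons alone, and none began at the first exon of Fxyd7.

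Of the 28 chains named for Fxyd7 in replicate 2, 5 were also present in replicate 1, where they were named for Fxyd1. They had 19 reads in replicate 2 and 8 in replicate 1. Across the annotation, 49 of 26966 intron chains found in both libraries (0.182%) were named for different genes. The 3 most read models named for Fxyd7 each reached upstream to 31052177, the far end of the 50-base coding exon of Fxyd1: one of 241 bases and 3 exons with 7 reads and a last exon starting 2 bases further in, one of 244 bases and 3 exons with 6 reads, and one of 180 bases and 4 exons with 5 reads. With reads placed by the annotated exons they cover, Fxyd1 had 1108 and 4965 reads and a log2 ratio of 1.62 (1.53 to 1.72).

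Reads that join both genes numbered 1 in replicate 1, where the model was named for Fxyd1, and 7 in replicate 2. The ratio of these counts has an interval of -0.70 to 7.76 on the log2 scale, so no difference between the libraries was detectable. The models of all 8 reads ran to the annotated 3′ end of Fxyd7 at 31042513. Of the 8, 5 held all 240 coding bases of Fxyd7, 2 held all 276 coding bases of Fxyd1, and these 2 held both coding sequences in 1 molecule, with the Fxyd1 stop codon between them. Both began in the distal first exon of Fxyd1.

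The reads crossed from Fxyd1 to Fxyd7 by 3 different splices, and 2 reads passed through the 210 bases unspliced. The bases on each side of the splices are shown because they mark where the transcripts of both genes meet; lower case is the last 15 bases of the Fxyd1 exon, capitals are the first 15 bases of the Fxyd7 exon, both from the GENCODE M21 transcripts on the minus strand of chromosome 7.

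Splice from 31051933 to 31051444: aggaaactcagccagCTGCTGCAGCCGCGC
Splice from 31051933 to 31047402: aggaaactcagccagTTCCTGAAGAAACAG
Splice from 31052128 to 31047402: gcagctccatccgccTTCCTGAAGAAACAG

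The first, with 3 reads in replicate 2, leaves Fxyd1 after its stop codon and enters the first exon of Fxyd7 (31051356 to 31051467) ahead of its coding start at 31051386, so that coding region is whole. The second, with 1 read in replicate 2, enters the second exon of Fxyd7 and omits the first coding bases. The last, with 1 read in each library, skips the final coding exon of Fxyd1 and enters the same Fxyd7 exon. It keeps the reading frame: 85 whole codons of Fxyd1 precede the junction, and Fxyd7 continues in its own frame over 209 of its 240 coding bases. Of its 2 reads, that of replicate 1 (11 exons, 896 bases) holds the coding start of Fxyd1 and that of replicate 2 (6 exons, 631 bases) does not.

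**Figure D5:**
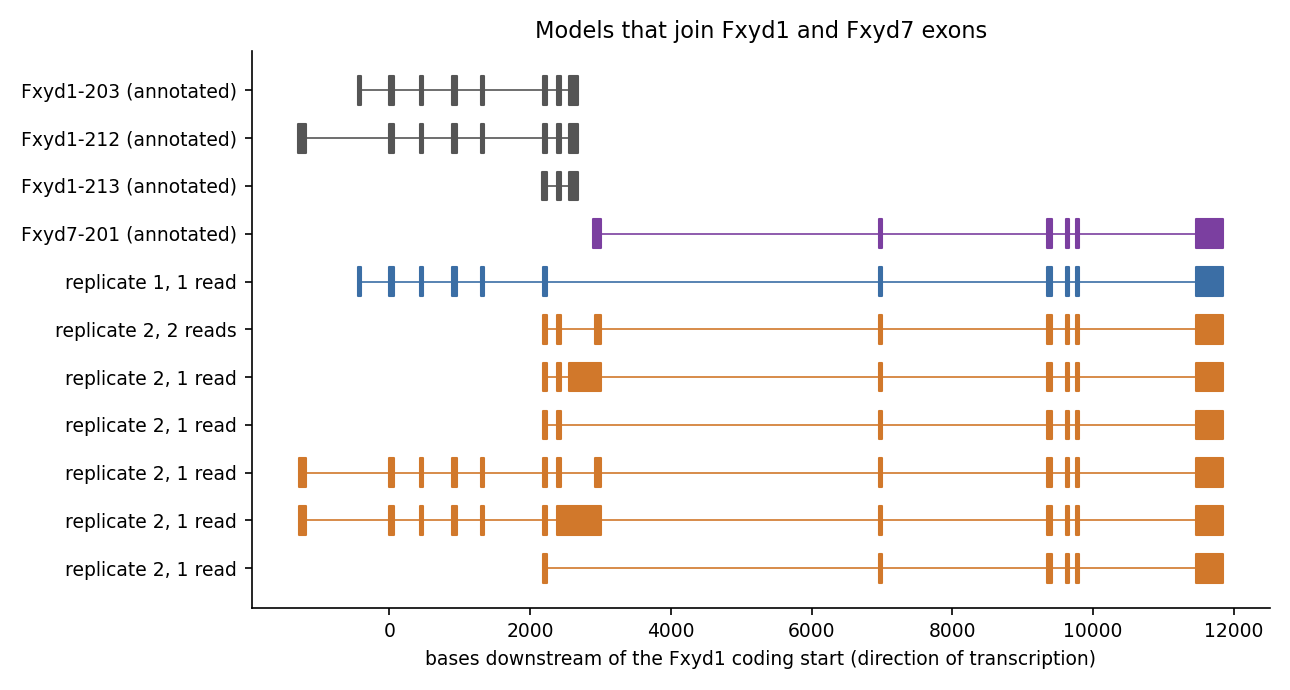
Annotated transcripts of Fxyd1 (grey, from the top with a proximal first exon, with a distal one, and the 3-exon model) and Fxyd7 (purple) and the 7 models that join them, as blocks (exons) and lines (introns) along the distance in bases from the Fxyd1 coding start, in the direction of transcription; blue marks replicate 1 and orange replicate 2, with the number of reads at the left. Each joined model ends where Fxyd7 ends, and 3 of the 7 reach back to a first exon of Fxyd1.

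Transcripts of Fxyd6 differed by 3 coding bases. The third exon begins at 45390634 or at 45390637 (chromosome 9, plus strand), which gives 282 or 279 coding bases in the annotation. Both spliced coding stretches are shown, with the 3 extra bases in capitals.

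Longer form, ENSMUST00000085939.7: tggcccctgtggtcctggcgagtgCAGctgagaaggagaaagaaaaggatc
Shorter form, ENSMUST00000217381.1: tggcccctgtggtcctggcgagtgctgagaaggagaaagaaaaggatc

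The shorter form (8 exons, 1789 bases) had 29 reads in replicate 1 and 56 in replicate 2, and the longer form (1788 bases) had 14 and 39. Over all reads of Fxyd6 that cross this junction, the longer form took 15 of 47 (31.9%, 19.1 to 47.1) and 42 of 105 (40.0%, 30.6 to 50.0). The intervals overlap. Next among complete chains was an unannotated one of 9 exons and 1840 bases, with 2 reads in replicate 1 alone. A single-exon model of 475 bases at the 3′ end of the gene (45395681 to 45396155) had 0 and 12 reads.

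Atp1b2 was read almost wholly as 1 transcript. ENSMUST00000047889.12 (7 exons, 2842 bases) took 388 of 406 complete chains in replicate 1 (95.6%, 93.1 to 97.4) and 324 of 347 in replicate 2 (93.4%, 90.2 to 95.8). ENSMUST00000144425.1, a noncoding annotation of 6 exons whose introns are all shared with it, had 8 reads in each library. An unannotated chain of 7 exons, with 5 and 7 reads, removes an intron from 69602424 to 69601622, which is 2 bases longer than the annotated one ending at 69601624, and so loses 2 coding bases. Reads in single-exon models at the 3′ end numbered 14 in replicate 1 (69599736 to 69601358) and 38 in replicate 2 (69599736 to 69600666). The neighbours Trp53 and Shbg, which do not overlap Atp1b2, had 13 and 16 reads and 1 and 1.

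For Atp1b1, ENSMUST00000027863.12 (6 exons, 2580 bases) was the single annotated transcript with reads, with 88 in replicate 1 and 72 in replicate 2. These were all 88 complete chains in replicate 1 and 94.7% (87.1 to 98.5) in replicate 2, where the next chain had 2 reads. A single-exon model of 617 bases had 23 and 39 reads. It spans 164437109 to 164437725, which is the stretch where the 3′ end of Atp1b1 overlaps the 3′ end of Nme7 on the opposite strand. Nme7, a nucleoside diphosphate kinase family gene, had 3 and 15 reads, and Gm32391, the next gene upstream, had 3 and 4. The sources used here do not state how reads over this stretch were placed on a strand, so those 23 and 39 reads cannot be told apart from Nme7 reads.

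The remaining neighbours of the FXYD members had few reads. Lgi4, which lies upstream of Fxyd1 on the opposite strand, had 4 and 3 reads, and Mir7050, a miRNA gene that overlaps Fxyd5, had none. Fam187b, below Fxyd5, and Tmprss13, below Fxyd6, had none in either library, and so had Gm37411, below Atp1b1. Fxyd5 lies 31 bases downstream of Fxyd7.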

How the data were processed

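The authors' deposited tables hold raw counts of reads per transcript model, built on mm10 with GENCODE M21 per the notes deposited with them. TALON is named as a source in the deposited gene models. For the platform, aligner, versions and read filters: not given in the sources used here. Model lengths, exon numbers and intron chains were read from the deposited gene models and matched between the libraries by chromosome, strand and chain. Complete chains are those classed Known, NIC (known splice sites in a new combination) or NNC (with a new site); ISM chains are incomplete and Genomic is the class the deposited table gives to the remaining models. Reads were summed per gene name; CPM used mouse reads without ERCC spike-ins, which took 30993 and 31067 reads. Log2 ratios add 0.5 reads.

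Values are means ± SD over n = 2. With 1 library against 1, edgeR's quasi-likelihood test has no residual degrees of freedom, so Fisher's exact test (10 or more reads) and, for isoform shares (5 or more reads per chain), up to 100000 Monte Carlo permutations were used, adjusted by Benjamini-Hochberg at 0.05. Both were run on simulated counts that held no spread between animals and no length trend, so these runs are no check on either. First exons within 200 bases were grouped. The members, gene lists and tests were chosen with earlier results of these data known. The text names the 6 members, pump genes with a read, neighbours, each member's 3 most read complete chains, unannotated chains with 10 or more reads and the 2 most read markers per list, apart from some pump genes and 1 marker list that are not reported here; further chains of Fxyd1 and Fxyd7 were chosen after their values were seen. Alternatives changed the scaling (TMM from edgeR 4.0.16, DESeq2 1.42.0 size factors, spike-ins), the read minimum, the classes counted and the library. Placement by exons, counts over coding introns and leaving out the 3-exon model were added after seeing the data. R 4.3.3, Python 3.11.15, pandas 2.3.3, scipy 1.17.1 and statsmodels 0.14.6 were used. The tables hold no molecular identifiers, so reads are not known to be independent molecules.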

Additional observations from a re-analysis of the deposited data

How the results depend on the processing

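Of the alternatives other than leaving out a library, 28 results stayed within their interval, their SD or 1.5 times the count, 18 moved and 1 changed sign. Scaling by the spike-ins, which raises every log2 ratio by 0.54, put Atp1b1 at 0.068, Atp1b2 at -0.11, Fxyd1 at 2.14 and Fxyd6 at 1.27. TMM and DESeq2 size factors raise every ratio by 0.17 and 0.22: Fxyd1 stood at 1.78 and 1.83, and Atp1b2 at -0.42 with size factors. With the length trend removed, Atp1b2 stood at -0.26 and Fxyd1, taken at 255 bases, at 0.33. The share of Atp1b2 among beta subunit reads was 77.3% over complete chains, 77.6% over annotated transcripts and 77.4% over reads with every coding intron, against 71.4% over all reads. By deposited name, the share of Fxyd1 among FXYD reads was 96.6% over annotated transcripts and 88.05% over reads with every coding intron, against 95.9%. The leading chain took, over all reads of the gene, 66.3% for Atp1b1, 84.6% for Atp1b2 and 52.0% for Fxyd6, and 97.8% for Atp1b2 over annotated transcripts. Without the 3-exon model the leading Fxyd1 chain took 41.5% in place of 73.7%. With 2 libraries, leaving out either gives the value of the other, which the report prints for each share, and this is no check of stability. The genes called ranged from 2035 to 2286 under the alternatives against 2311, and those with differing isoform shares from 26 to 40 against 37. No paired analysis was possible because there is 1 group. With 2 libraries the spread holds animal, dissection and library differences together, and p-values and intervals measure counting error between these libraries.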
